A study of Mus musculus with 6 samples.

Results

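Cyclic nucleotide phosphodiesterases are the enzymes that break down the second messengers cAMP and cGMP, and 10 of their genes are described here in the cerebellum of mice exposed to methylmercury before birth. The genes are Pde1a, Pde1b, Pde1c, Pde2a, Pde4a, Pde4b, Pde4d, Pde5a, Pde9a and Pde10a, taken by symbol from a table of 56748 genes. The set was drawn up because Pde1c was already known to be lower after exposure in these libraries. The set was thus chosen by the MeHg against Control difference of Pde1c, and the members' values in that comparison are given as a description. Of the 10 genes, 9 had enough counts to enter the fit over 16859 genes, and Pde2a did not.

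RNA was sequenced from the cerebellum of 6 C57BL/6J mice aged 90 to 120 days. The dams of the 3 MeHg mice drank water with 0.2 ppm methylmercury chloride (MeHg, an organic mercury compound toxic to neurons) from the first day of pregnancy until birth, and the dams of the 3 Control mice drank water with 0 ppm. The labels give no exposure of the pups after birth, no dam and no litter. The labels call the replicates biological, and p-values measure the spread between these 6 mice, of which some may be litter mates. Each group has 2 animals labelled female and 1 labelled male.

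The libraries held 14487022 to 15975367 counts in MeHg and 14116088 to 20303833 in Control. Control replicate 2 is labelled female, but its Xist level was 0.249 CPM (counts scaled to the library total after TMM adjustment) and its Ddx3y level 87.2 CPM, as in the libraries labelled male. All 20 granule cell markers were detected in the table, with a summed level of 7615 to 8813 CPM in MeHg and 10299.6 to 11074 CPM in Control, so the libraries carry the defining RNA of cerebellar cortex. Markers of neighbouring tissue were present too, and none of these 3 lists had a gene at 0 in all libraries. The 13 choroid plexus markers summed to 2608 to 10335 CPM in MeHg and 156 to 3157 CPM in Control. The 15 brainstem and midbrain neuron markers summed to 376 CPM in MeHg replicate 2, to 108 and 112 CPM in MeHg replicates 1 and 3, and to 42.3 to 109 CPM in Control. The 10 ependymal markers summed to 55.7 to 87.6 CPM in MeHg and 29.2 to 41.6 CPM in Control.

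Phosphodiesterases end cyclic nucleotide signals and differ in what they cut and in what controls them. The Pde1 enzymes are switched on by calcium bound to calmodulin and cut both cAMP and cGMP, so they join calcium entry to cyclic nucleotide loss. Pde4 enzymes cut cAMP alone, Pde5a and Pde9a cut cGMP alone, and Pde2a and Pde10a cut both. In the cerebellum, cGMP made after nitric oxide release acts in Purkinje cells, and cAMP acts in granule cells and at their synapses.

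Pde1c, a calmodulin-dependent enzyme with high affinity for both cAMP and cGMP, had the most negative fold change of the 9 tested members. Its level was 79.8, 96.8 and 76.6 CPM in MeHg replicates 1, 2 and 3, against 145, 139 and 142 CPM in Control replicates 1, 2 and 3. Every MeHg library lay well below every Control library, and MeHg replicate 2 was the highest of the exposed. The means were 84.4 ± 10.8 CPM in MeHg and 142 ± 3.15 CPM in Control (SD, n = 3 each). The log2 fold change was -0.75 ± 0.087 (SE), with a 95% interval of -0.95 to -0.56, so the MeHg level was 59.4% of the Control level. Among the 1630 genes with a Control level at or above that of Pde1c, 3 had a more negative fold change, and among all 16859 genes 222 had.

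**Figure D1:**
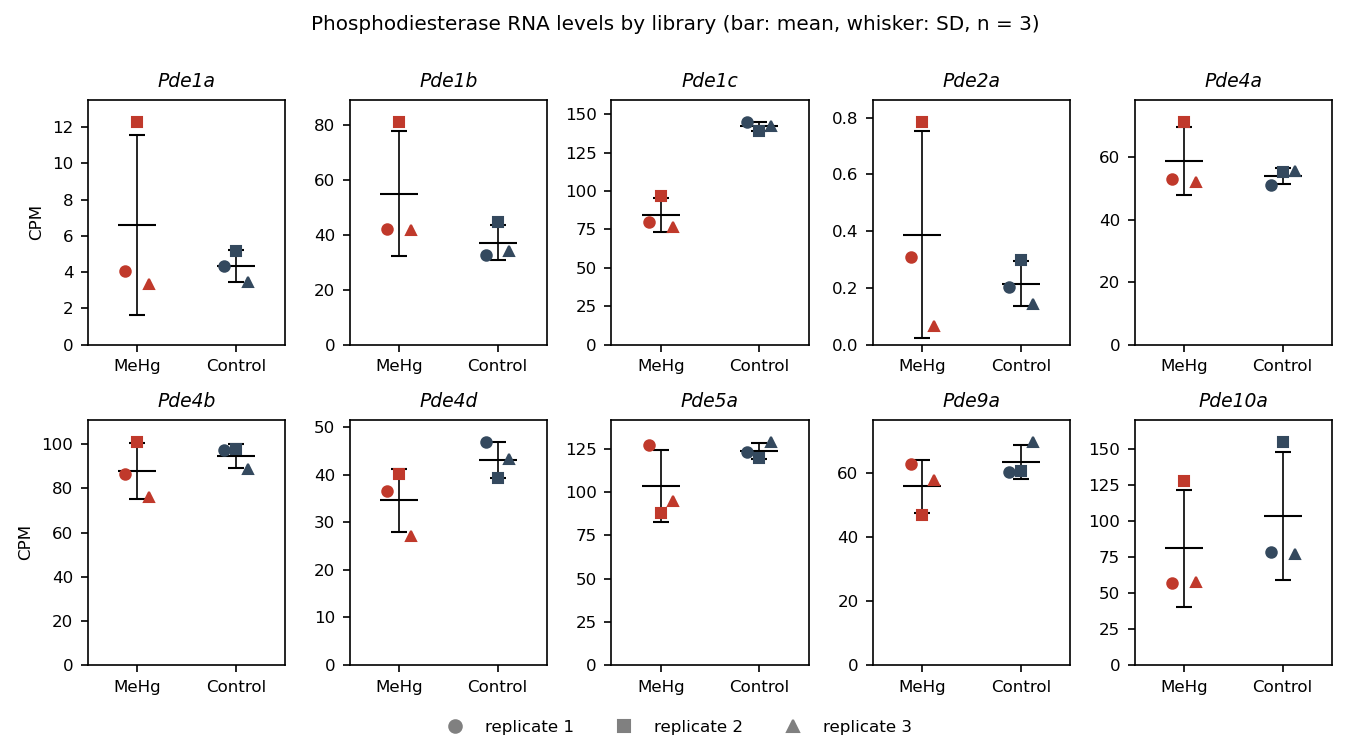
Level of each of the 10 phosphodiesterase genes in CPM (y axis, from 0) in the 3 MeHg and the 3 Control libraries; symbols are replicates, bars the means and whiskers the SD. Pde1c is the one gene whose MeHg points (76.6 to 96.8 CPM) all lie below its Control points (139 to 145 CPM), and replicate 2 of either group is high for Pde10a.

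Pde1c lies on chromosome 6, from 56046789 to 56629472 on the minus strand in the deposited table (mm39), and spans 582.7 kb. Reads were counted over the whole gene, whose deposited exon length of 20520 bases is the greatest of the 10 and exceeds its longest single GENCODE transcript, of 8986 bases. GENCODE lists 24 transcripts of Pde1c with 24 different starts, and the counts do not separate them. The 3 start windows of Pde1c in RefSeq are shown because they are places where RNA of this gene can begin. They do not cover all 24 GENCODE starts, and their numbers give only their order among these 3. They were not placed against the 5′ end of the deposited gene, which is in another build. Beside them is the first RefSeq start of its relative Pde1b, whose mean was higher in MeHg. Each window runs from 250 bases before to 50 bases after a start, 5′ to 3′ on the gene's strand, with CG dinucleotides in capitals. In GRCm38.p6, the build of that RefSeq table and not the build of the counts, the Pde1c windows are chr6:56369585-56369884, chr6:56362761-56363060 and chr6:56362343-56362642 on the minus strand, and the Pde1b window is chr15:103502784-103503083 on the plus strand.
Pde1c start 1: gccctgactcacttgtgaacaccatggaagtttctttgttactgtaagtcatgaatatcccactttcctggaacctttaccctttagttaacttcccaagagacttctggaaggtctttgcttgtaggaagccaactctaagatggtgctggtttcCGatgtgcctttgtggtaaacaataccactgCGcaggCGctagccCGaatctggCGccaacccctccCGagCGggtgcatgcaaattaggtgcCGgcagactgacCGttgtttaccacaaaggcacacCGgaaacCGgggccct
Pde1c start 2: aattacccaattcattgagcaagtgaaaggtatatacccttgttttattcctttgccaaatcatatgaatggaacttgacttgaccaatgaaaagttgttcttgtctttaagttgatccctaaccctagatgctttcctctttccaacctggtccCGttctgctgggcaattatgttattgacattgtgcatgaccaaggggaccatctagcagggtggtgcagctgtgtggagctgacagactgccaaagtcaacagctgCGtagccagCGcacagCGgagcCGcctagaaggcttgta
Pde1c start 3: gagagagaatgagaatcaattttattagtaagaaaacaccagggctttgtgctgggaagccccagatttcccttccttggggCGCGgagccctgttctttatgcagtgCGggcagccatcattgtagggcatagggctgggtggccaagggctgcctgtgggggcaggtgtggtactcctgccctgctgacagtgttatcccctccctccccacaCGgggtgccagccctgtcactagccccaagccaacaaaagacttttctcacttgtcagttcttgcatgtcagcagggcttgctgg
Pde1b start 1: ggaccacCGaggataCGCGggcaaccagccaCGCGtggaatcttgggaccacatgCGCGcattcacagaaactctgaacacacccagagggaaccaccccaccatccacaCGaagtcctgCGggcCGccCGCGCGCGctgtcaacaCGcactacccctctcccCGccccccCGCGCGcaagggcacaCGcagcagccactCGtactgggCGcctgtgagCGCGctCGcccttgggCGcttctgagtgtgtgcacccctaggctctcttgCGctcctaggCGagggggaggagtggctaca

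The Pde1c windows hold 11, 5 and 4 CG dinucleotides in the order shown, against 28 in the printed Pde1b window. The other Pde1b windows, not shown, hold 1 and 2. The median was 7 over the 32851 windows of the table outside chromosome 18. The cAMP response element TGACGTCA was searched on both strands, as was its short form TGACG, whose matches include any full element. The full element was in none of the 26 windows of the 9 members that have one, and in 1.79% of all windows. The short form was in 4 of the 26 windows, 1 each for Pde1a, Pde2a, Pde4a and Pde4b, and in 20.8% of all windows. None of the printed windows holds either, which says only that these letters are not in these 300 bases.

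The other calmodulin-dependent members did not share the direction of Pde1c. Pde1b, which prefers cGMP and is best known from striatal neurons, was at 42.1, 81.0 and 41.7 CPM in MeHg replicates 1, 2 and 3, against 32.7, 44.5 and 34.0 CPM in Control. The groups overlapped, since Control replicate 2 exceeded MeHg replicates 1 and 3, and MeHg replicate 2 stood far above the rest. Its log2 fold change was 0.56 ± 0.25 (SE), and 0.18 without MeHg replicate 2. Pde1a, a relative that also prefers cGMP, was low, at 4.08, 12.3 and 3.37 CPM in MeHg and 4.36, 5.19 and 3.45 CPM in Control. Again MeHg replicate 2 was the highest library, and the fold change of 0.59 ± 0.45 became -0.22 without it.

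Per unit of length the balance among the 3 Pde1 genes differed between the groups. FPKM is the authors' count scaled to exon length and to a library total of their own, which exceeded the sum of the counts. Pde1c supplied 31.4%, 21.7% and 31.1% of the summed Pde1 FPKM in MeHg replicates 1, 2 and 3, and 51.1%, 42.6% and 50.2% in Control. The mean share was 28.1 ± 5.54% in MeHg and 48.0 ± 4.64% in Control (SD, n = 3 each). Pde1b supplied 63.1% to 68.9% in MeHg and 43.7% to 51.9% in Control, so by FPKM Pde1b exceeded Pde1c in every MeHg library and in 1 Control library, replicate 2. The ratio of Pde1b to Pde1c FPKM was 2.01, 3.18 and 2.07 in MeHg and 0.854, 1.22 and 0.911 in Control. The summed Pde1 FPKM itself overlapped, at 11.3 to 20.2 in MeHg and 13.0 to 14.9 in Control. These shares contain the Pde1c difference that chose the set, and their size depends on the gene length used. With the longest GENCODE transcript in place of the deposited length, an alternative chosen after seeing the data, Pde1c supplied 46.4%, 34.2% and 46.0% in MeHg and 66.3%, 58.3% and 65.5% in Control. The ratio of Pde1b to Pde1c was then 1.06, 1.68 and 1.09 in MeHg and 0.450, 0.642 and 0.480 in Control, so Pde1c exceeded Pde1b in every Control library.

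**Figure D2:**
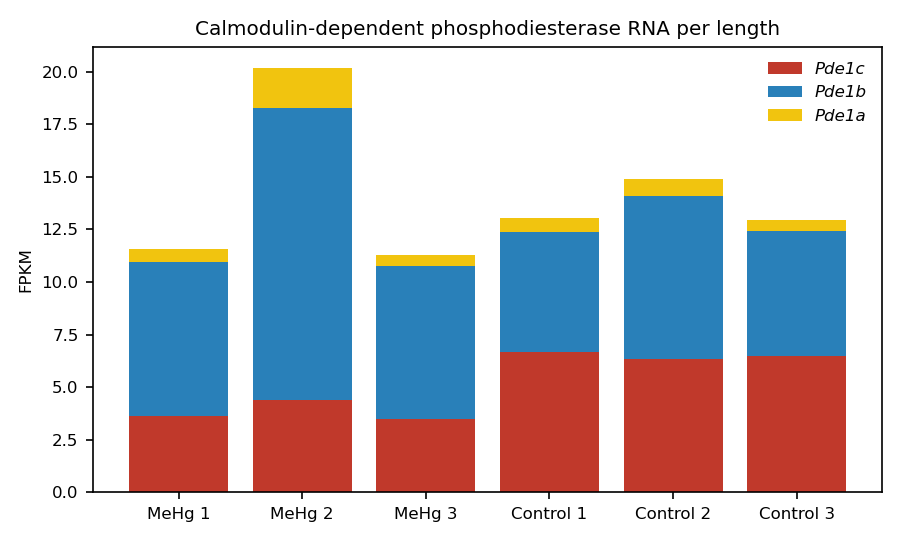
FPKM of Pde1c, Pde1b and Pde1a stacked for each library (y axis in FPKM, from 0; MeHg bars left of Control bars). The Pde1c segment is 3.51 to 4.37 FPKM in MeHg and 6.35 to 6.67 FPKM in Control, and MeHg replicate 2 has the tallest bar through Pde1b.

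The Pde4 genes, which encode the cAMP-specific enzymes inhibited by rolipram, showed small differences of either sign. Pde4d, at 36.5, 40.1 and 27.2 CPM in MeHg and 46.9, 39.3 and 43.3 CPM in Control, had a fold change of -0.32 ± 0.14. Its groups overlapped through MeHg replicate 2 and Control replicate 2, and the fold change was -0.17 without MeHg replicate 3. Pde4b was at 86.7, 101 and 76.0 CPM in MeHg and 97.6, 97.8 and 88.6 CPM in Control (-0.11 ± 0.10). Pde4a was at 52.9, 71.3 and 52.0 CPM in MeHg and 51.0, 55.1 and 55.7 CPM in Control (0.12 ± 0.12). MeHg replicate 2 was the highest library for both, and without it the fold change was -0.031 for Pde4a and -0.21 for Pde4b. Without MeHg replicate 3, the lowest library for Pde4b, that gene was at -0.010. The summed FPKM of the 3 genes was 15.3 to 20.6 in MeHg and 18.1 to 18.6 in Control.

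The cGMP-specific genes had overlapping groups. Pde5a, the target of sildenafil and a gene of Purkinje cells within the cerebellum, was at 127, 88.1 and 94.9 CPM in MeHg and 123, 120 and 129 CPM in Control. MeHg replicates 2 and 3 lay below every Control library and MeHg replicate 1 lay among them, with a fold change of -0.26 ± 0.12 that was -0.15 without MeHg replicate 2 and -0.44 without MeHg replicate 1. Pde9a, the enzyme with the highest affinity for cGMP, was at 62.8, 46.6 and 57.8 CPM in MeHg and 60.2, 60.5 and 69.5 CPM in Control (-0.18 ± 0.11), and -0.061 without MeHg replicate 2. In both genes MeHg replicate 2 was the lowest of the 6 libraries. The 20 Purkinje cell markers summed to 9696 CPM in that library, against 12108 and 10894 CPM in MeHg replicates 1 and 3 and 12029.7 to 13019 CPM in Control, and the part of this in the Pde5a and Pde9a values was not tested.

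Pde10a, a dual enzyme best known from medium spiny neurons of the striatum, followed the library more than the group. It was at 57.2, 128 and 58.0 CPM in MeHg replicates 1, 2 and 3 and at 78.3, 155 and 77.0 CPM in Control. Replicate 2 of each group was far above the other libraries of its group, and the groups overlapped. The fold change was -0.36 ± 0.35, and it was -0.84 without MeHg replicate 2 and 0.058 without Control replicate 2. The 12 striatum and cortex neuron markers summed to 321, 289 and 334 CPM in MeHg and 286, 284 and 269 CPM in Control, a sum carried mostly by Ppp1r1b and Penk. Their mean log2 CPM, which weights the 9 tested genes equally, was 2.31, 2.82 and 2.21 in MeHg and 1.89, 2.24 and 2.01 in Control, highest in replicate 2 of each group. Drd2, the dopamine receptor of striatal neurons, named after its values were seen, was at 4.51, 10.1 and 4.99 CPM in MeHg and 1.17, 3.89 and 1.51 CPM in Control. The part of such neurons in the Pde10a level was not tested. The labels call MeHg replicate 2 male and Control replicate 2 female. The Xist and Ddx3y levels of Control replicate 2, at 0.249 and 87.2 CPM, were like those of the libraries labelled male. Control replicate 3, labelled male, was at 77.0 CPM for Pde10a. What part sex, as read from these RNAs, had in the Pde10a level was not tested.

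Pde2a, the enzyme that cGMP stimulates, had 5, 12 and 1 counts in MeHg and 4, 6 and 2 counts in Control. It was too low to test, and the count is uncertain, because the gene Gm45837 lies over nearly its whole length on the same strand (chromosome 7, 101060093 to 101162026). How reads shared by both were counted is not stated in the labels, and Gm45837 held 0 to 2 counts. The other overlaps were small: genes inside Pde4d and Pde9a reached at most 2.12% of the counts of those members.

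FPKM sets levels of different genes per deposited exon length. By FPKM, Pde9a had the highest mean of the members, at 14.7 ± 2.28 in MeHg and 16.8 ± 1.41 in Control (SD, n = 3 each). Pde5a followed in both groups, at 9.81 ± 1.99 in MeHg and 11.8 ± 0.437 in Control. In MeHg the order went on with Pde1b (9.48 ± 3.82), Pde4b (7.77 ± 1.05), Pde4a (7.15 ± 1.27), Pde10a (5.87 ± 2.88), Pde1c (3.84 ± 0.462) and Pde4d (2.69 ± 0.503). In Control it went on with Pde4b (8.42 ± 0.463), Pde10a (7.55 ± 3.23), Pde4a (6.62 ± 0.305), Pde1c (6.51 ± 0.160), Pde1b (6.45 ± 1.12) and Pde4d (3.38 ± 0.306). The mean ± SD ranges of neighbours overlapped from Pde5a down to Pde1c in MeHg and from Pde4b down to Pde1b in Control. The order inside those runs is thus not set. In MeHg the range of Pde1b also overlapped that of Pde9a. In MeHg replicate 2, Pde1b was higher than Pde9a, at 13.9 against 12.2 FPKM. The order also rests on the deposited lengths, since that of Pde1c is 2.28 times its longest transcript and that of Pde1b 1.2 times. Per kilobase of longest transcript, Pde9a still led, at 25.6 ± 3.82 CPM in MeHg and 29.1 ± 2.43 CPM in Control. On that scale Pde1c averaged 9.39 ± 1.21 CPM in MeHg and 15.8 ± 0.351 CPM in Control, against 12.2 ± 5.04 CPM in MeHg and 8.27 ± 1.45 CPM in Control for Pde1b. Pde1c then stood in place 7 of the 10 in MeHg, as by FPKM, and in place 4 in Control, against place 6 by FPKM. Pde1a, at 1.02 ± 0.760 in MeHg and 0.677 ± 0.135 in Control, and Pde2a, at 0.0585 ± 0.0549 and 0.0329 ± 0.0119, were the lowest.

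Over the set, 6 of the 9 tested members had a negative fold change and 3 a positive one, with a median of -0.18, beside 48.9% negative and a median of 0.0062 over all 16859 tested genes. Calls are genes whose edgeR quasi-likelihood p, adjusted by Benjamini-Hochberg over all tested genes, was under 0.05. Pde1c was the only member called, and 2.36% of all tested genes were called, 97 higher (0.575%) and 301 lower (1.79%). It was also the only tested member whose groups did not overlap, beside 29.4% of all tested genes, 15.5% with MeHg below and 13.9% with MeHg above. Because the rule used this contrast, nothing is read from either count. With upper-quartile scaling 78 genes were called higher and 119 lower, 1.17% in all, and Pde1c was among those lower. The spread was larger in MeHg than in Control for 9 of the 10 members, all but Pde10a, and MeHg replicate 2 was the highest exposed library for 8 of them and the lowest for Pde5a and Pde9a. The call of Pde1c was lost without Control replicate 1, Control replicate 3, MeHg replicate 1 or MeHg replicate 3 (edgeR adjusted p of 0.125, 0.207, 0.063 and 0.146), while its fold change stayed between -0.85 and -0.69 with any library left out. Without these libraries 0, 0, 2 and 0 genes of the whole table were called, and 1091 without MeHg replicate 2 and 220 without Control replicate 2. With both libraries numbered 2 left out, 1723 genes (10.3%) were called, among them Pde1b (0.34, edgeR adjusted p = 0.0404), Pde4d (-0.49, edgeR adjusted p = 0.0418) and Pde10a (-0.42, edgeR adjusted p = 0.00947) beside Pde1c (-0.87). With no filter on low counts, 2378 genes (7.38%) were called, among them Pde1b (edgeR adjusted p = 8.38e-05), Pde4d (0.0455), Pde5a (0.0291) and Pde10a (0.0223) beside Pde1c.

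**Figure D3:**
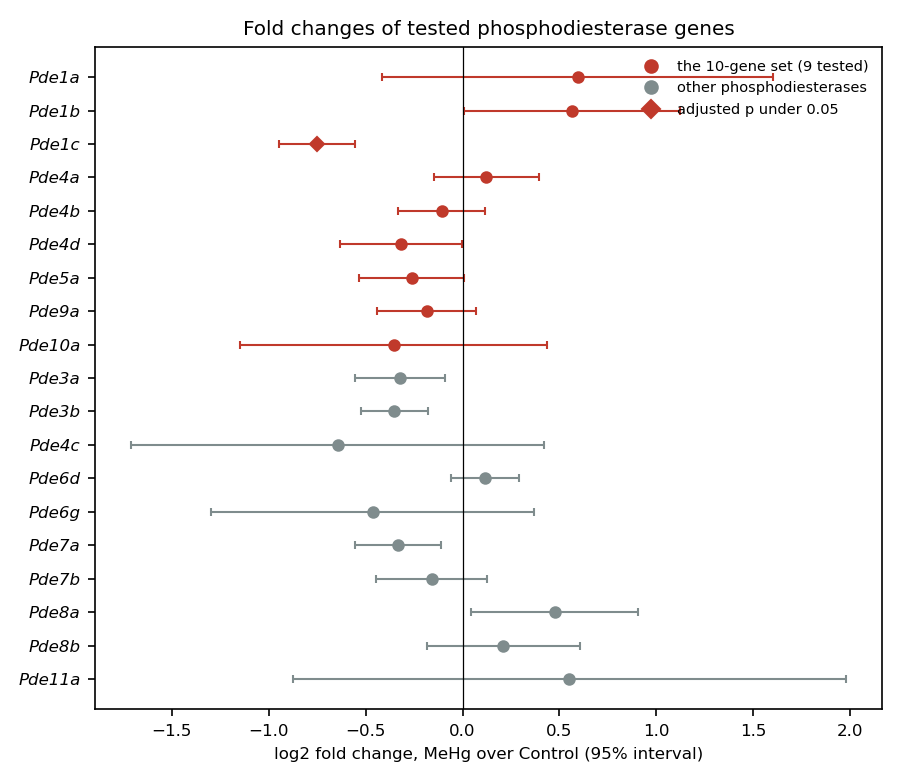
Log2 fold change of MeHg over Control (x axis) with its 95% interval for the 9 tested genes of the set and 10 other tested phosphodiesterase genes (rows). Pde1c, at -0.75, has an interval clear of 0, and the interval spans 0 for 6 of the 9 tested genes of the set; the intervals are not adjusted for the number of genes.

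**Figure D4:**
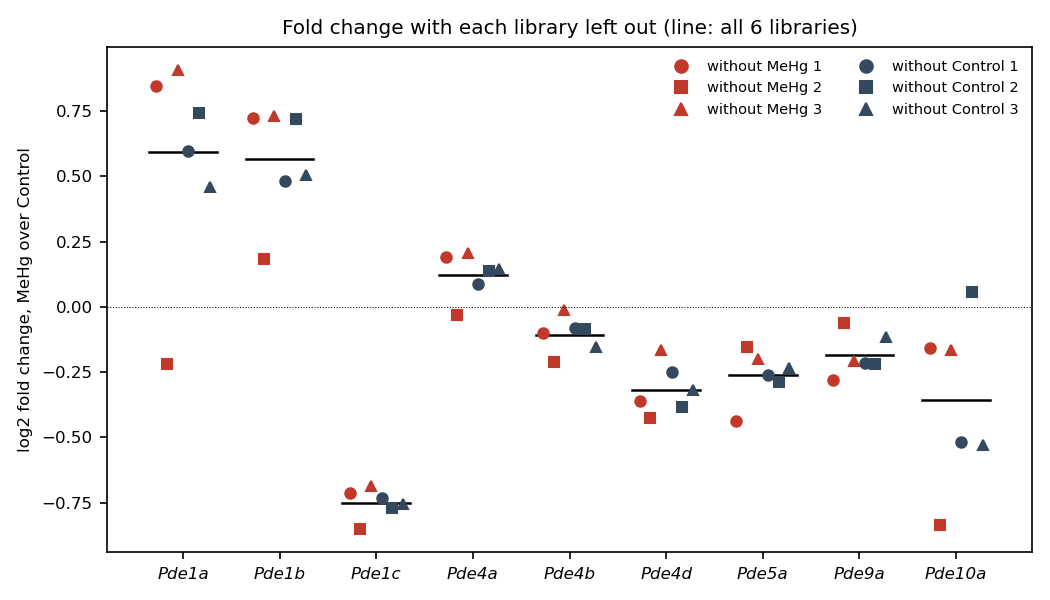
Log2 fold change of MeHg over Control (y axis) for the 9 tested genes with each library left out in turn (symbols) and with all 6 libraries (lines). Pde1c stays between -0.85 and -0.69, whereas Pde1a and Pde4a change sign without MeHg replicate 2 and Pde10a without Control replicate 2.

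Marker RNA of granule cells, the small excitatory neurons of the cerebellar cortex, was lower in MeHg beside the Pde1c difference. All 20 markers had a negative fold change, with a median of -0.38; 9 fell by the edgeR test (Gabra6, Gabrd, Zic1, Fat2, Etv1, Pax6, Tiam1, Cadps2 and Reln), and 17 had all MeHg libraries below all Control libraries. Over all tested genes, 48.9% had a negative fold change, 1.79% were called lower and 15.5% had all MeHg libraries below all Control libraries. Gabra6, the granule cell GABA receptor subunit, fell by 0.58 on the log2 scale, and none of the 20 had a more negative fold change than Pde1c. In bulk tissue, fewer cells of a type and less RNA per cell cannot be told apart. Set against the granule list in the same library (its log2 CPM minus the list's mean log2 CPM), Pde1c stood at -2.12, -1.60 and -2.06 in MeHg replicates 1, 2 and 3 and at -1.58, -1.51 and -1.52 in Control. The difference was -0.39 ± 0.16 (SE, n = 3 each), with MeHg replicate 2 close to Control. Relative to the Purkinje list, whose 20 markers had a median fold change of -0.17 and of which Rora, Ebf1 and Plcb4 fell, the difference for Pde1c was -0.60 ± 0.19. On the granule scale Pde4d (0.04 ± 0.20), Pde5a (0.09 ± 0.11) and Pde10a (-0.01 ± 0.57) had differences smaller than their SE. Pde1b (0.88 ± 0.41) and Pde4a (0.48 ± 0.22) stood higher in every MeHg library, but overlapped on the Purkinje scale. Pde1a (0.74 ± 0.65), Pde4b (0.25 ± 0.17) and Pde9a (0.18 ± 0.11) were positive on the granule scale with overlapping libraries. Because the granule list was itself lower in MeHg, a gene that did not differ would also stand higher in MeHg on this scale. The Pde1c values on both scales contain the fall for which Pde1c was chosen, so nothing is read from its place below the markers. The part of cell composition in the Pde1c value was not tested.

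Other phosphodiesterases were counted from a list of 14 further genes, of which 10 were tested. None was called by edgeR, 1 by DESeq2 and 0 by limma-voom, while 4 had an unadjusted p under 0.05 in edgeR. Pde3b, a cAMP-cutting enzyme that cGMP inhibits, was nearest, at 37.7, 35.5 and 36.7 CPM in MeHg and 46.9, 49.1 and 44.2 CPM in Control (-0.35 ± 0.077, edgeR adjusted p = 0.0519). Pde7a, specific for cAMP, was at 32.5, 30.4 and 34.6 CPM in MeHg and 41.0, 37.0 and 45.1 CPM in Control (-0.33 ± 0.098, edgeR adjusted p = 0.0904). All MeHg libraries lay below all Control libraries for both genes. The median fold change of the list was -0.24, with 6 negative and 4 positive.

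Of 10 adenylyl cyclase genes, whose products make cAMP, 1 was called lower and none higher. Over all tested genes 1.79% were called lower and 0.575% higher. Adcy1, a cyclase that calcium and calmodulin activate and that is abundant in granule cells, was at 1750.5, 1686 and 1494 CPM in MeHg and 2424.5, 2245 and 2184 CPM in Control. Every MeHg library was lower, and the fold change was -0.48 ± 0.089 (edgeR adjusted p = 0.0433). The call was lost without any single library other than MeHg replicate 2, with the fold change between -0.52 and -0.41. The other 9 cyclases did not pass, 3 with a negative and 6 with a positive fold change, and the median over the list was 0.047.

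Among the guanylyl cyclase, natriuretic receptor and nitric oxide synthase genes, 9 of 14 were tested and none was called by edgeR, DESeq2 or limma-voom, with 1 at an unadjusted p under 0.05 in edgeR. The median was -0.011, with 5 negative and 4 positive. Npr3, the clearance receptor of natriuretic peptides, had the smallest p, at 11.7, 8.31 and 21.8 CPM in MeHg and 7.66, 2.84 and 1.37 CPM in Control (1.78 ± 0.54, edgeR adjusted p = 0.0963). It was highest in MeHg replicate 3 and lowest in Control replicate 3, the libraries with the highest and lowest choroid plexus sum, and the part of that tissue in its level was not tested. Nos1, the neuronal nitric oxide synthase, overlapped, at 145, 169 and 142 CPM in MeHg and 161, 184 and 167 CPM in Control (-0.17 ± 0.082, edgeR adjusted p = 0.236).

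Effectors of cAMP and cGMP showed no edgeR call among 19 tested of 27 listed genes (1 by DESeq2, 0 by limma-voom, 7 at an unadjusted p under 0.05 in edgeR). The median was 0.0047, and 10 of the 19 fold changes were positive. Hcn2, a cyclic nucleotide-gated pacemaker channel, was at 268, 302 and 244 CPM in MeHg and 231, 216 and 211 CPM in Control (0.31 ± 0.084, edgeR adjusted p = 0.0796). Cngb1, a subunit of cyclic nucleotide-gated channels, was near the limit of detection, at 1.01 to 1.77 CPM in MeHg and 0.216 to 0.698 CPM in Control (1.58 ± 0.48, edgeR adjusted p = 0.0963). Neither passed the test, although the libraries of the groups did not overlap in either gene.

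Of 22 kinase anchor and substrate genes, 16 had a negative fold change, beside 48.9% of all tested genes, and the median was -0.15. All MeHg libraries lay below all Control libraries for 9 of them, beside 15.5% of all tested genes. Akap9 and Creb1 were called lower, as were 1.79% of all tested genes. Akap9, which anchors protein kinase A at the centrosome and Golgi, fell, with 129, 135 and 123 CPM in MeHg and 174, 155 and 181 CPM in Control (-0.40 ± 0.072, edgeR adjusted p = 0.0431). Creb1, the transcription factor that protein kinase A phosphorylates, fell, with 79.1, 74.0 and 77.5 CPM in MeHg and 102, 91.7 and 99.9 CPM in Control (-0.35 ± 0.065, edgeR adjusted p = 0.0433). Both calls were lost when any 1 of Control replicates 1 and 3 and MeHg replicates 1 and 3 was left out. An offset for gene length brought Akap9 to -0.24 and Creb1 to -0.26, without a call, and upper-quartile scaling also ended the call of Creb1 (edgeR adjusted p = 0.0533).

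Of 9 calmodulin and calmodulin regulator genes, 5 had a negative fold change and the median was -0.062. Among them 1 was called higher, beside 0.575% of all tested genes. Pcp4l1, a relative of the calmodulin regulator Pcp4, rose, with 76.3, 93.2 and 99.8 CPM in MeHg and 52.1, 54.5 and 48.1 CPM in Control (0.80 ± 0.10, edgeR adjusted p = 0.0431). Its call was lost in the same way as that of Akap9 except without MeHg replicate 1. Of 12 G protein subunit genes none was called by edgeR or limma-voom and 2 were by DESeq2, with 3 at an unadjusted p under 0.05 in edgeR and a median of 0.018. The smallest p were those of Gnai2, which inhibits adenylyl cyclase (0.23 ± 0.058, edgeR adjusted p = 0.0639), and Gnaq, which activates phospholipase C (-0.29 ± 0.087, edgeR adjusted p = 0.0988).

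**Figure D5:**
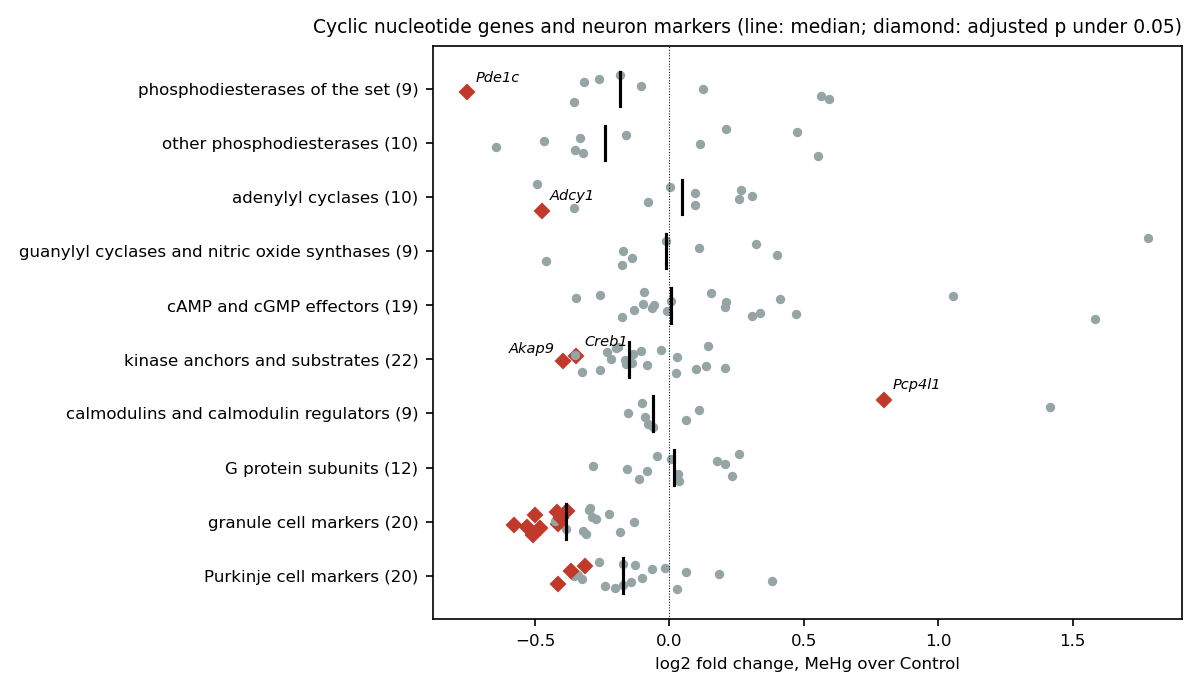
Log2 fold change of MeHg over Control (x axis) for each tested gene of the cyclic nucleotide lists and of the granule and Purkinje cell markers (rows, number tested in brackets); lines are medians and diamonds genes with an adjusted p under 0.05. Pde1c, at -0.75, is the leftmost gene, and the granule cell markers, with a median of -0.38, lie left of the cyclic nucleotide lists.

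Genes whose levels followed Pde1c most closely over the 6 libraries were sought among 10239 genes with a mean of at least 10 CPM. Members of the set and genes with provisional Gm or Rik symbols were left out. Likeness was the root-mean-square difference of log2 CPM after each gene was centred on its own mean, and Pde1c enters with the group difference that chose it. The nearest were Setbp1 (0.0766), the sodium channel gene Scn2a (0.0814), Cemip (0.0853), the collagen gene Col19a1 (0.0864) and the transcriptional coactivator gene Ppargc1b (0.0877). Scn2a, for instance, was at 283, 344 and 241 CPM in MeHg and 480, 425 and 461 CPM in Control, again highest among exposed libraries in replicate 2. All 5 had every MeHg library below every Control library, beside 15.5% of all tested genes. This follows from their choice by likeness to Pde1c and is not a separate result.

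Sex was compared as the labels give it, with exposure in the model, and did not enter the choice of the set. No gene was called between the libraries labelled male and female (edgeR, 1019 genes at an unadjusted p under 0.05; 3 calls by DESeq2 and 0 by limma-voom). The member with the smallest p was Pde4a, at 0.26 ± 0.099 (SE, male minus female, edgeR adjusted p = 0.818), and all 9 had an adjusted p of 0.818 or more. Without Control replicate 2, whose sex genes disagree with its label, 21 genes were called and still no member. The largest member values were then those of Pde1a (0.95 ± 0.38), Pde10a (0.66 ± 0.20) and Pde1b (0.595 ± 0.16, edgeR adjusted p = 0.210). MeHg replicate 2, which also had the greatest sum of brainstem markers, is 1 of the 2 libraries labelled male. The other, Control replicate 3, was at 3.45 CPM for Pde1a, 34.0 CPM for Pde1b and 77.0 CPM for Pde10a. Control replicate 1, labelled female, was at 4.36, 32.7 and 78.3 CPM. What parts sex and tissue content had in the levels of single libraries was not tested.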

How the data were processed

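RNA from 3 MeHg and 3 Control cerebella was sequenced. The deposited table gives whole-number counts per gene and the authors' FPKM, which within each library are count over deposited gene length times a constant. The constant implies totals of 15794857 to 17279811 in MeHg and 14803520 to 21392002 in Control, above the summed counts, so FPKM were 0.917 to 0.925 times the count-based value in MeHg and 0.949 to 0.962 times in Control. The genome build is mm39 and DESeq2 is named, per the submitters' processing notes; for the aligner, counter and strand setting the sources used here say nothing. Counts were scaled by TMM (also for CPM) and tested with edgeR 4.0.16 (quasi-likelihood, filterByExpr, R 4.3.3) on group alone, or on group and labelled sex, with Benjamini-Hochberg adjustment over 16859 genes. DESeq2 1.42.0 and limma 3.58.1 were alternatives, with other scalings, filters, offsets, FPKM pseudocounts of 1 and 0.1, and libraries left out. All members were named, with called genes of each pathway list or else the 2 with the smallest p, called marker genes, and the 5 genes most like Pde1c. The members and lists were chosen with earlier results of these data known. Tested on simulated data for the exposure comparison over 16859 genes, the fit recovered 24 of 67 planted log2 changes of 0.5, 41 of 67 of size 1 and 55 of 66 of size 2, with 11 false calls among 16659. Chi-square per degree of freedom between replicates was 7.77 to 19.7, so none were copies.

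The remaining marker lists had these edgeR results, beside 0.575% of all tested genes called higher and 1.79% called lower. Of 13 choroid plexus genes none was called and the median was 1.84, and of 10 ependymal genes Foxj1 and Rsph1 rose with a median of 1.33. Of 9 brainstem and midbrain genes none was called (median 1.93), nor of 9 striatum and cortex genes (median 0.31). Of 10 endothelial genes Flt1 rose (median 0.27). None was called among 13 interneuron and Golgi (median 0.015), 6 unipolar brush (median -0.18) or 12 astrocyte genes (median -0.021). Nor was any among 10 oligodendrocyte (median 0.31), 10 microglia (median 0.27) or 9 mural cell genes (median 0.26). The calls varied with the tool. DESeq2 called 7 ependymal, 3 oligodendrocyte, 2 astrocyte and 2 mural cell genes. It also called 1 endothelial, 1 unipolar brush, 1 brainstem and midbrain and 1 striatum and cortex gene, and none in the other lists of this paragraph. By limma-voom 1 ependymal and 1 endothelial gene were called.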

Additional observations from a re-analysis of the deposited data

Results flagged for a closer look

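For 3 genes both MeHg libraries labelled female lay below both Control libraries labelled female while the MeHg library labelled male lay above the Control library labelled male; the difference was not tested. For Pde1a the log2 ratio was 1.83 under male labels and -0.358 under female labels, a difference of 2.19. For Pde4b it was 0.188 under male labels and -0.263 under female labels, a difference of 0.451. For Pde10a it was 0.729 under male labels and -1.02 under female labels, a difference of 1.74. Each group has 1 library labelled male. Control replicate 2, labelled female, had Xist and Ddx3y levels like those of the libraries labelled male. For Pde10a, MeHg replicate 2, at 128 CPM, lay above Control replicate 3, at 77.0 CPM, but below Control replicate 2, at 155 CPM. For Pde1a and Pde4b, MeHg replicate 2 lay above both of these Control libraries. The mean ratios also had opposite signs, with overlapping libraries under female labels, for Pde2a (2.45 male, -0.415 female, at 1 to 12 counts) and Pde4a (0.357 male, -0.0173 female).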

How the results depend on the processing

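Pde1c kept its direction in 20 of 20 alternatives (-0.87 to -0.60) and its call in 13; beside the losses without a library, the call was lost with limma on log2(FPKM + 1) and log2(FPKM + 0.1) (adjusted p of 0.0785 and 0.0763) and with the length offset (edgeR adjusted p = 0.0502). The 398 genes called for exposure became 197 with upper-quartile scaling, 2378 with no filter, 1394 with DESeq2, 609 with labelled sex as a term, 166 with the libraries labelled female alone, 1723 without both libraries numbered 2, 0 with limma on FPKM at either pseudocount (3874 and 3887 at an unadjusted p under 0.05), 0 with the length offset (3982) and 110 with length and GC. Leaving out 1 library gave 0 to 1091. For labelled sex, 0 calls became 408 with no filter and 3 with DESeq2, and 0 to 166 with 1 library left out. With the replicate number as a block, 648 genes were called for exposure and 5 for sex, and Pde10a was called (-0.38, edgeR adjusted p = 0.0375). Deviations of same-numbered libraries correlated at 0.19, 0.35 and -0.24. Without differently numbered pairs beside them, these values cannot decide whether the numbers pair the samples. Pde1a turned to -0.217 without MeHg replicate 2, -0.357 in libraries labelled female and -0.0696 without both libraries numbered 2. Pde4a turned to -0.0314, -0.0188 and -0.0159 under the same settings, and Pde10a to 0.0579 without Control replicate 2. With 1 library left out, Pde1a ranged from -0.217 to 0.908, Pde4a from -0.0314 to 0.206 and Pde10a from -0.837 to 0.0579. The cause was not tested. With longest-transcript lengths, chosen after seeing the data, the mean Pde1c share of the Pde1 sum was 42.2% in MeHg and 63.4% in Control, against 28.1% in MeHg and 48.0% in Control by FPKM. With 3 libraries a group, small differences were often missed on simulated counts.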
